A study of Mus musculus with 7 samples.

Results

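The 44 mouse collagen genes, chosen as all listed symbols made of Col, a number, the letter a and a number, were followed through single-cell RNA counts of 7 libraries of whole brain tumours. They are 44 of the 32285 genes listed. In the 48588 cells kept, they held 211219 of 682444279 unique molecular identifiers (UMIs, the tags that count captured transcripts), or 0.03095%. No member was at 0, and 42 of the 44 had at least 100 UMIs. The 2 below that were Col10a1 with 54 and Col6a4 with 23 UMIs.

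The tumours grew in C57BL/6 mice of 7 to 10 weeks and wild-type genotype from NSCG-mCherry, a glioma line that carries EGFRvIII, lacks Arf/Ink4a and expresses the red fluorescent protein mCherry. UT (1 library) is labelled as control. IgG (2 libraries) received an IgG2b isotype antibody at 10 mg/kg, which also served as control. BP (2 libraries) received B20, an anti-VEGF antibody, at 5 mg/kg and anti-PD-L1 at 10 mg/kg. BPI (1 library) received the BP antibodies and daily oral IPI-145, an inhibitor of the delta and gamma forms of PI3 kinase, at 10 mg/kg. CD40 (1 library) received a CD40 agonist antibody at 100 µg per dose in 2 doses, with or without a dendritic cell vaccine, which the labels do not settle. All groups share the tumour line, the host strain and the dissociation, which used collagenases I and IV. Each library pooled tumours of at least 2 mice, so mice could not be told apart, and p-values measure only the spread between pooled libraries.

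Collagens are proteins built from 3 chains wound into a triple helix. The fibrillar types I, II, III, V, XI, XXIV and XXVII form the fibres of connective tissue, and type I is a heterotrimer of Col1a1 and Col1a2 chains. Type IV forms the sheet of the basement membrane, on which endothelial cells and pericytes of brain vessels sit, and types XV and XVIII are collagens of the same zone that carry glycosaminoglycan chains. Other families bind to fibrils (types IX, XII, XIV, XVI, XIX, XX and XXII), form beaded filaments (type VI), make hexagonal nets or anchoring fibrils (types VIII, X and VII), or span the plasma membrane (types XIII, XVII, XXIII and XXV). In healthy brain tissue, fibrillar collagen is largely limited to the meninges and the walls of vessels.

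Depth was 68997476 to 186793886 UMIs per library, with 5373 to 9650 cells and a median of 8855 to 17876.5 UMIs per cell. Clusters were named from fixed markers with the collagens left out of the clustering, giving 31664 tumour-like, 375 endothelial-like, 114 mural-like (pericyte and smooth muscle) and 30 fibroblast-like cells, while 5502 cells stayed unnamed. The library numbers in the labels hold 2 runs of consecutive numbers. BPI, BP replicate 2 and IgG replicate 1 form the first (set A), CD40 and IgG replicate 2 the second (set B), and UT and BP replicate 1 each stand alone. The tumour-like cells of set A stood apart from those of the other 4 libraries. They carried Egfr at 184 to 227, Sox2 at 51.5 to 61.3 and Nes at 70.4 to 115 UMIs per 1000000 (CPM), the last below the 135 to 292 CPM of the others, but Olig2, at 0.340 to 1.17 CPM, was close to 0 against 14.1 to 92.3 elsewhere. The 4 clusters that hold most of them had 3 or 4 of the 10 tumour markers raised. Ptprz1 (0.325 to 1.09 against 58.6 to 71.4 CPM), Cspg5 (2.50 to 5.01 against 61.3 to 119), Bcan (8.85 to 17.1 against 38.8 to 126) and Sox9 (11.5 to 16.7 against 24.1 to 91.2) were also lower than in every other library, so the name rests on few markers there. Fabp7 reached 0.905 to 4.96 CPM in set A against 69.3 to 167 CPM in the others, and Wfdc2 at 304 to 393 CPM in set A and at most 2.42 CPM elsewhere. UT shared 0 to 3 cell barcodes with each other library, and the other pairs shared 10 to 26, in no pair more than 0.384% of the smaller library. UT also lists fewer barcodes, 713553 against 1487060 to 2310016 in the others, although the labels name the same kit chemistry for all 7, and the part of this in the UT values was not tested. Free RNA, judged from marker genes of other classes in droplets without cells, made up 3.10% to 11.7% of the tumour-like UMIs in the 6 libraries where it could be estimated, and could not be estimated in IgG replicate 1.

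Tumour-like cells, 65.2% of all cells with 81.3% of the UMIs of all genes, held 67.4% of the collagen UMIs. Endothelial-like cells, 0.772% of cells with 1.02% of all UMIs, held 11.9%. Mural-like cells, 0.235% of cells with 0.145% of all UMIs, held 2.57%, and fibroblast-like cells, 0.0617% of cells with 0.0400% of all UMIs, held 0.953%. The rest lay in other classes and in the 5502 unnamed cells, which held 9414 of the 54941 Col4a1 UMIs. In CPM of a class, the summed collagens reached 7375 CPM in fibroblast-like, 5492 in mural-like and 3628 in endothelial-like cells, against 257 CPM in tumour-like cells. In set A the tumour-like share was 91.4% for IgG replicate 1, 94.7% for BP replicate 2 and 89.4% for BPI. Outside set A it was 80.9% for UT, 65.9% for IgG replicate 2, 59.95% for BP replicate 1 and 54.3% for CD40. It was highest in the 3 libraries of set A at this clustering, where 13, 6 and 21 endothelial-like cells were captured in IgG replicate 1, BP replicate 2 and BPI. Endothelial-like cells numbered 61 in UT, 87 in IgG replicate 2, 39 in BP replicate 1 and 148 in CD40. The BP mean of the tumour-like share was 77.3% ± 24.6 (SD, n = 2) and the IgG mean 78.7% ± 18.0 (SD, n = 2), a difference of -1.36 points (two-sided exact permutation test, p = 1, smallest possible p = 0.33). The difference is far below the spread between replicates, and the groups overlap. It lies between -18.7 and 16.0 points when 1 library is left out, and was 8.82 points at a finer clustering. There the IgG mean was 64.7% ± 7.28 (SD, n = 2), which puts IgG replicate 1 below its 91.4%, and 1310 of its cells lay in a cluster that stayed unnamed. The order of the libraries is therefore given for the coarser clustering only. These shares depend on how many cells of each class survived dissociation, and fewer cells of a class and less RNA per cell cannot be told apart in them.

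**Figure D1:**
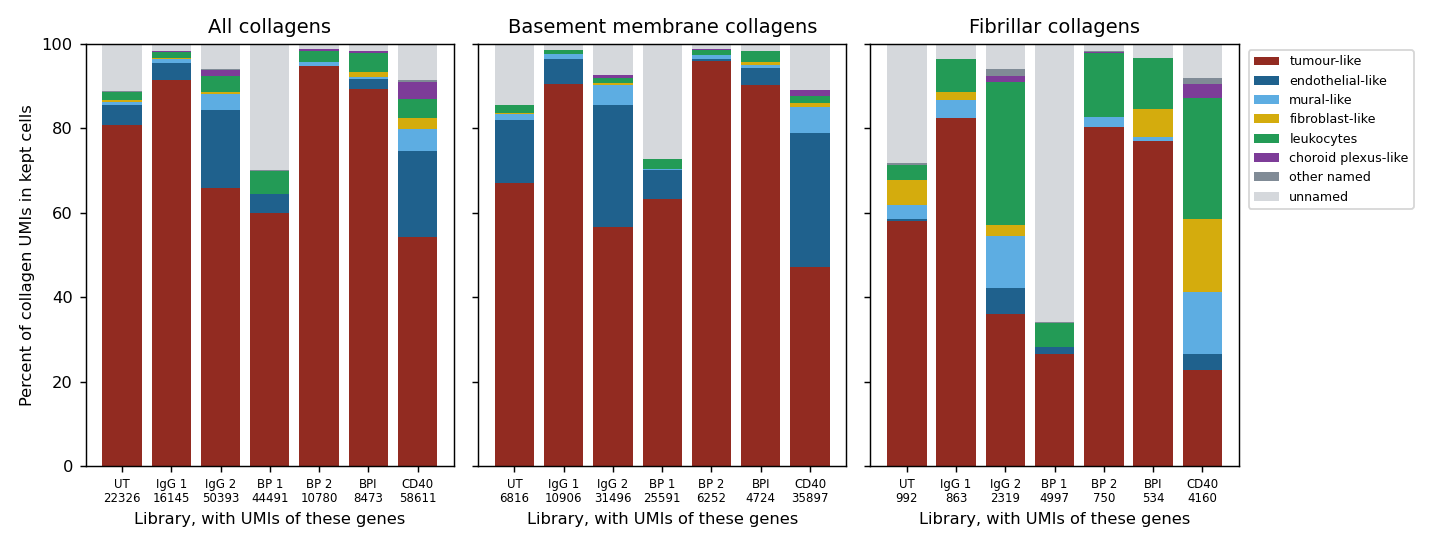
Percent of collagen UMIs in kept cells (y axis) by cell class in each of the 7 libraries (x axis, with the number of UMIs), for all collagens, the 8 basement membrane collagens and the 11 fibrillar collagens. Tumour-like cells held 54.3% to 94.7% of all collagen UMIs, and unnamed cells held 65.8% of the fibrillar UMIs of BP replicate 1.

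The families differed in where their UMIs lay. The 8 basement membrane genes made up 57.6% of all collagen UMIs, and 62.2% of theirs were in tumour-like and 19.8% in endothelial-like cells. The 9 fibril-associated genes made up 23.3%, of which 87.4% were in tumour-like cells, beside their 81.3% of all UMIs. The 11 fibrillar genes made up only 6.92%, of which 37.1% were in tumour-like, 28.0% in unnamed, 15.5% in microglia-like, 6.77% in mural-like, 6.03% in fibroblast-like and 2.59% in endothelial-like cells. The 4 transmembrane genes made up 5.35%, with 86.2% in tumour-like cells, and the 6 beaded-filament genes 3.67%, with 51.3% there. The 4 network and anchoring genes and the 2 others (Col26a1 and Col28a1) made up 1.57% and 1.59%. The 4 most counted genes were Col4a1 with 54941 UMIs, Col9a3 with 39608, Col18a1 with 21244 and Col4a2 with 20625. The order differed between libraries. Col18a1 led in IgG replicate 1, BP replicate 2 and BPI, with 8133, 4858 and 3491 UMIs against 557, 147 and 229 of Col4a1, and Col9a3 led in UT with 11387 UMIs.

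Among members, 34 reached 20 CPM in at least 1 named class, taken as the median over libraries with 20 or more cells of that class. Since the kit tags each transcript once at its 3′ end, CPM needs no correction for transcript length. Fibroblast-like cells (CD40 library only) and mural-like cells (IgG replicate 2 and CD40) had the most such members, 26 and 16. T-like, NK-like and monocyte or macrophage-like cells had none. In the 206419 UMIs of the fibroblast-like cells 5 UMIs were enough to pass, as for Col5a3 and Col9a3. The share of all genes at this mark was not counted, so these numbers of members do not rank the classes.

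**Figure D2:**
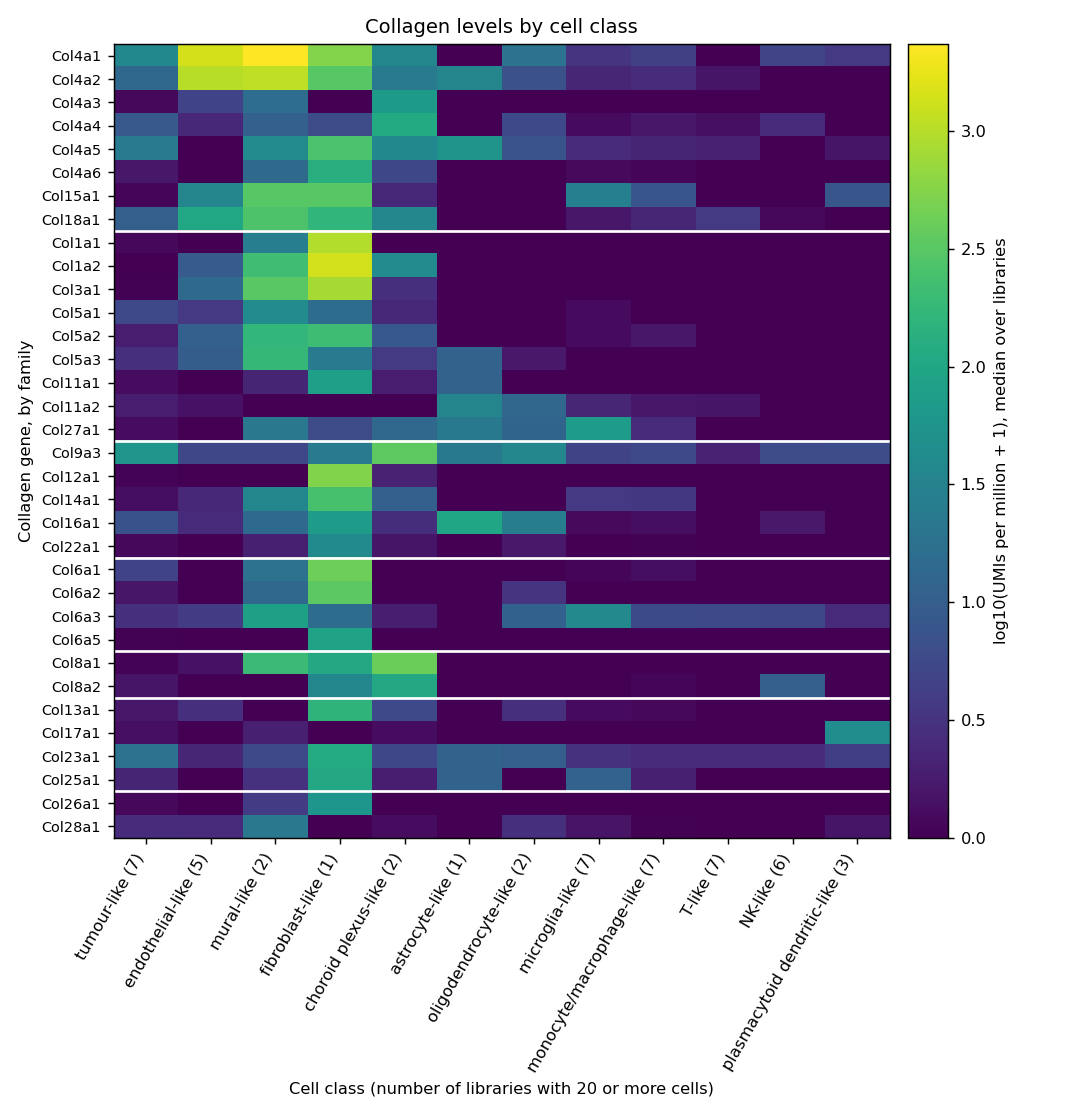
Median level of each of the 34 collagens over libraries, as log10(CPM + 1) in colour, by gene (rows, white lines between families) and cell class (columns, with the number of libraries). Col4a1 and Col4a2 were bright in endothelial-like, mural-like and fibroblast-like columns, and Col1a1, Col1a2 and Col3a1 were bright in the fibroblast-like column.

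Col4a1 and Col4a2 encode the alpha 1 and alpha 2 chains of the common type IV collagen of basement membranes. In endothelial-like cells Col4a1 stood at 837 CPM in UT, 2597 in IgG replicate 2, 1421 in BP replicate 1, 711 in BPI and 2304 in CD40. Col4a2 stood at 632, 1386, 1029, 549 and 1295 CPM in the same order. Both genes were lowest in BPI, whose 21 cells gave 105 and 81 UMIs, and highest in the 2 libraries of set B. The libraries differ in which endothelial-like clusters they hold. The cluster with Apln, Kdr and Cd93 among its top genes took 46 of 87 such cells in IgG replicate 2 and 55 of 148 in CD40, but 4 of 61 in UT, 0 of 39 in BP replicate 1 and 1 of 21 in BPI. In mural-like cells Col4a1 reached 2281 CPM in IgG replicate 2 and 2383 CPM in CD40, and Col4a2 reached 1018 and 1175 CPM. The endothelial-like Col4a1 levels of the same libraries were 2597 and 2304 CPM. Of the 2280 mural-like Col4a1 UMIs over all libraries, 2089 lay in a cluster of 61 cells led by Rgs5 and Higd1b. A cluster of 34 cells led by Acta2 and Tagln held 160. All 10 endothelial markers were detected in these mural-like cells, summed at 1545 and 1385 CPM against 9362 and 9441 CPM in endothelial-like cells, and their part in the mural-like levels was not tested. Free RNA would give at most 11.2 CPM of Col4a1 in endothelial-like and 9.48 CPM in mural-like cells. Endothelial-like cells held 26.7% of all Col4a1 UMIs and 40.8% of all Col4a2 UMIs, and tumour-like cells held 50.9% and 38.7%. Unnamed cells held 9414 of the 54941 Col4a1 UMIs and 2774 of the 20625 Col4a2 UMIs.

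The 2 genes lie head to head on chromosome 8 of GRCm38 (GENCODE vM21), Col4a1 (ENSMUSG00000031502) at 11198423-11312826 on the minus strand and Col4a2 (ENSMUSG00000031503) at 11312805-11449287 on the plus strand, with start sites 21 bp apart. The RefSeq promoter windows (GRCm38.p6, 250 bases before to 50 after the start) are shown because both transcripts start within this 1 stretch. They overlap by 78 bases, so part of 1 is the reverse complement of part of the other. Capitals mark CCAAT and GGGCGG on either strand (ATTGG and CCGCCC when read on the printed strand).
Col4a1, chr8:11312777-11313076, minus strand: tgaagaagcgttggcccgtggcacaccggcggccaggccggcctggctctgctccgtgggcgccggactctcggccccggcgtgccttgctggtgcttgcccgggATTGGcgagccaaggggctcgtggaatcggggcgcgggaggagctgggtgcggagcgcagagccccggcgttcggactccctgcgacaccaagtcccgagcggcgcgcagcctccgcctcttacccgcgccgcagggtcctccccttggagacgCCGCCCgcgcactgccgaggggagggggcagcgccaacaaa
Col4a2, chr8:11312555-11312854, plus strand: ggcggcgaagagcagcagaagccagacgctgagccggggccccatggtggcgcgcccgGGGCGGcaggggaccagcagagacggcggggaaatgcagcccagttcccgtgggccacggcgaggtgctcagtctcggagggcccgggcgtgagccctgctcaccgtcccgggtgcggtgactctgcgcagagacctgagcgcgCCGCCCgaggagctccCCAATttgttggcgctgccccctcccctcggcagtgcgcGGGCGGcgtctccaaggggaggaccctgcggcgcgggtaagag
TATAAA was searched too and was in neither window. The windows hold 74.0% and 73.7% G and C. CCAAT was found in 37.4%, GGGCGG in 35.7% and TATAAA in 13.6% of the 32851 RefSeq promoter windows of this length. Of 38 collagen windows, from 35 members, 34.2%, 60.5% and 13.2% held them.

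Col4a1 exceeded Col4a2 in the classes that expressed both. As a description with no test, the ratio of their UMIs was 1.75 in endothelial-like cells (1.30 to 1.87 over 5 libraries), 2.10 in mural-like cells (2.03 to 2.24 over 2 libraries) and 3.50 in tumour-like cells (1.75 to 4.38 over 7 libraries). An unnamed cluster of 843 cells was led by Gfap, A2m and Igfbp5, with 9 of 10 tumour and 4 of 7 astrocyte markers raised. Its ratio was 5.80 (4.50 to 7.22 over 4 libraries). In that cluster Col4a1 stood at 162 CPM in UT, 523 in IgG replicate 2, 324 in BP replicate 1 and 578 in CD40, well above the tumour-like cells of each of these libraries. In each of the 5 libraries with both classes, the tumour-like ratio was above the endothelial-like one. The lowest tumour-like ratio, 1.75, was that of IgG replicate 1, which has too few endothelial-like cells for a value.

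The other type IV genes also sit in head-to-head pairs, with start sites 72 bp apart for Col4a3 and Col4a4 on chromosome 1 and 1309 bp apart for Col4a5 and Col4a6 on the X chromosome. Col4a4 (ENSMUSG00000067158) lies at 82448423-82586849 on the minus strand and Col4a3 (ENSMUSG00000079465) at 82586921-82722059 on the plus strand. Col4a5 (ENSMUSG00000031274) lies at 141475385-141689234 on the plus strand and Col4a6 (ENSMUSG00000031273) at 141165403-141474076 on the minus strand. Their chains form more restricted type IV networks, known from kidney, lung and other epithelia. Tumour-like cells held 5042 UMIs of Col4a4 but 167 of Col4a3, a 30.2-fold excess. The ratio of Col4a3 to Col4a4 varied widely, from 0.00888 to 0.123 over the 5 libraries with enough UMIs. Choroid plexus-like cells, which carry the secretory epithelium of the ventricles, held 254 of Col4a4 and 175 of Col4a3, a 1.45-fold excess. In these cells Col4a4 was at 123 CPM in IgG replicate 2 and 103 CPM in CD40, and Col4a3 at 61.5 and 75.0 CPM. Likewise, tumour-like cells held 14721 UMIs of Col4a5 and 475 of Col4a6, a 31.0-fold excess (12.4 to 177.5 over 7 libraries). Fibroblast-like cells held 83 and 47 UMIs (1.77-fold). The start sites of Col4a3 and Col4a4 both lie within the Col4a4 window, shown for comparison with the first pair. It holds 63.3% G and C and none of the 3 motifs.
Col4a4, chr1:82586800-82587099, minus strand: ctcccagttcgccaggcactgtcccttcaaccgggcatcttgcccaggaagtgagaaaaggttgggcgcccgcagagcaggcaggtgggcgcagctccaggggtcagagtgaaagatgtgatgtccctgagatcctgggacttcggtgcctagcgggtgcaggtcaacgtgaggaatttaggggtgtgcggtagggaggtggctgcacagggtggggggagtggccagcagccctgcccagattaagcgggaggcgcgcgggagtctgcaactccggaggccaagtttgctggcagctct
Nothing about the factors that bind there follows from a missing match.

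**Figure D3:**
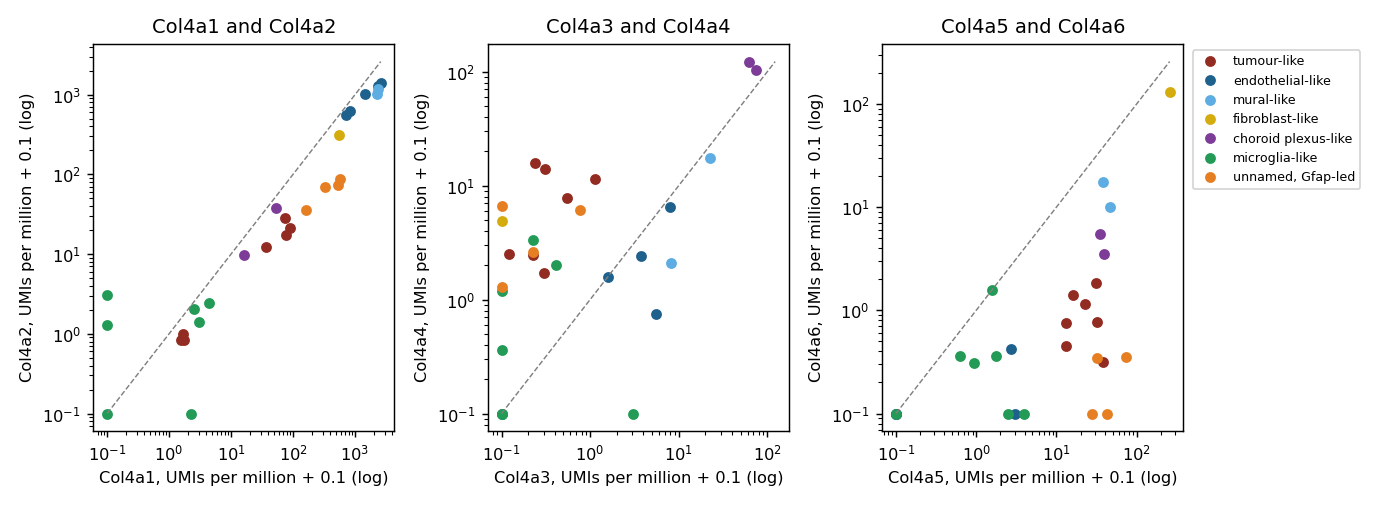
CPM of each type IV gene against that of its head-to-head partner on log axes, with 0.1 added so that 0 can be drawn; each point is 1 cell class in 1 library and the dashed line marks equality. All tumour-like, endothelial-like and mural-like points lie below equality for Col4a1 and Col4a2. Tumour-like points lie far from equality for the other pairs. In tumour-like UMIs pooled over libraries, the excess was 30.2-fold for Col4a4 and 31.0-fold for Col4a5.

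Col15a1 and Col18a1 encode the basement membrane zone collagens XV and XVIII, the second being the source of the fragment endostatin. Col15a1 (ENSMUSG00000028339) lies on chromosome 4 at 47208161-47313167 and Col18a1 (ENSMUSG00000001435) on chromosome 10 at 77052178-77166548. In mural-like cells Col15a1 was at 257 CPM in IgG replicate 2 and 362 CPM in CD40, and Col18a1 at 242 and 294 CPM. In endothelial-like cells Col15a1 was at 33.4 CPM in UT, 102 in IgG replicate 2, 44.2 in BP replicate 1, 6.77 in BPI and 25.7 in CD40. Endothelial-like Col18a1 was at 102, 100, 109, 13.6 and 78.3 CPM in the same order, with 2 UMIs behind the BPI value. Tumour-like cells had at most 0.149 CPM of Col15a1 but held 90.9% of all Col18a1 UMIs. Of the 21244 Col18a1 UMIs, 15967 lay in set A cells of the tumour-like clusters made mostly of set A cells. Tumour-like Col18a1 was at 72.2 to 112 CPM in set A. In the other 4 libraries it was at 4.78 to 9.37 CPM, below the endothelial-like level of each. Microglia-like cells held 35.2% of the Col15a1 UMIs, at 7.66 to 40.4 CPM and a median of 27.2 CPM over 7 libraries. This class joins a cluster led by Cxcl13 and Cd36, in which 7 of 10 monocyte and macrophage markers were also raised, and one with P2ry12 and Tmem119 among its top genes. The first held 107 such cells and the second 30 in UT, and 251 and 5 in BP replicate 1, while the second held most of them in each of the other 5 libraries, so values of the class across these libraries set different clusters side by side.

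The fibrillar genes of type I and III collagen were almost absent from tumour-like cells. They lie apart in the genome, Col1a1 on chromosome 11 (94936224-94953042), Col1a2 on chromosome 6 (4504814-4541544) and Col3a1 on chromosome 1 (45311538-45349706), where it neighbours Col5a2. There, Col1a2 and Col3a1 were at most 0.145 and 0.174 CPM and Col1a1 at most 0.240 CPM in any library. The free RNA estimate in UT was as high or higher, up to 7.27 CPM of Col1a1. It thus overstates free RNA there, since it exceeds what was counted. How much of these low levels is free RNA was not settled, and they are not read as expression. Fibroblast-like cells, counted in the CD40 library alone (21 cells, 206419 UMIs), had 1361 CPM of Col1a2 (95% exact Poisson interval 1207 to 1530), 945 of Col1a1 (817 to 1087) and 819 of Col3a1 (700 to 952). These intervals cover counting error only, and the class has no replicate. Mural-like cells had Col3a1 at 217 and 414 CPM, Col1a2 at 162 and 270 CPM and Col1a1 at 4.99 and 48.0 CPM in IgG replicate 2 and CD40. The partner chains Col1a2 and Col1a1 were thus in a ratio of 1.41 in fibroblast-like cells (350 and 249 UMIs over all libraries) and 8.23 in mural-like cells (214 and 26 UMIs). The mural-like libraries differed in this, with 135 and 24 UMIs (a ratio of 5.63) in CD40 but 65 and 2 UMIs in IgG replicate 2. The mural-like clusters differed too, with 169 and 26 UMIs in the one led by Rgs5 but 41 and 0 in the one led by Acta2. The fibroblast-like cells carried all 11 fibroblast markers, summed at 13600 CPM, and the mural list at 334 CPM with Abcc9, Higd1b and Kcnj8 at 0. They also carried the tumour list at 654 CPM against 1088 CPM in tumour-like cells of CD40, and the endothelial list at 184 CPM with Esam and Tek at 0. Over fibroblast-like cells of all libraries Egfr gave 94 UMIs (345 CPM), while Ptprz1 had 0 and Bcan, Cspg5 and Olig2 had 4, 4 and 6. The part of these lists in the fibroblast-like levels was not tested. Mural-like cells carried the fibroblast list at 3930 and 6934 CPM, of which Mgp gave nearly all, and Dcn was at 42.5 CPM in them against 3152 CPM in fibroblast-like cells.

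Other fibrillar genes had other sources. Col5a2 and Col5a3, chains of the type V collagen that starts fibrils, were at 99.8 and 236 CPM and at 170 and 176 CPM in mural-like cells. Col27a1, a fibrillar chain, had 83.8% of its 2574 UMIs in microglia-like cells. There it stood at 68.5 CPM for IgG replicate 1, 168 for BP replicate 2 and 58.0 for BPI, at 95.8 for IgG replicate 2 and 116 for CD40, and at 27.3 for UT and 28.0 for BP replicate 1, with free RNA giving at most 0.253 CPM. Its lowest 2 values were in UT and BP replicate 1, whose microglia-like cells lie mostly in the cluster led by Cxcl13. A small unnamed cluster of 48 cells, 29 in BP replicate 1 and 18 in UT, was led by Ccl11, Nts, Postn and Bgn and included Rgs5 among its top 10 genes. The cluster also had 8 of 10 tumour markers raised and a median depth 2.11 times that of its libraries. Their part in its collagen levels was not tested. In its BP replicate 1 cells Col3a1 was at 972 CPM, Col1a2 at 640 and Col5a2 at 498 CPM. That cluster is part of the 65.8% of fibrillar UMIs that were in unnamed cells of BP replicate 1 (exact binomial interval 64.4% to 67.1%), where only 1 mural-like and no fibroblast-like cell was named.

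The remaining families had sources of their own. Col9a3, a chain of the fibril-associated type IX collagen, was among the most counted collagens of tumour-like cells outside set A, above Col4a1 in UT (178 and 36.7 CPM) and below it in BP replicate 1 (55.2 and 73.3 CPM). It was also at 297 and 390 CPM in choroid plexus-like cells of IgG replicate 2 and CD40. Its partners Col9a1 and Col9a2 were far lower, at most 0.861 and 2.01 CPM in tumour-like cells. Col12a1 and Col14a1, fibril-associated collagens of connective tissue, were at 538 CPM (442 to 648) and 242 CPM (180 to 319) in fibroblast-like cells. Col16a1 was at 98.6 CPM (45.1 to 187, 9 UMIs) in the astrocyte-like cells of CD40 and at 3.49 to 9.28 CPM in tumour-like cells.

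Type VI collagen is built from Col6a1, Col6a2 and another chain. Col6a1 and Col6a2 were at 421 CPM (338 to 520) and 329 CPM (256 to 418) in fibroblast-like cells but Col6a3 at 14.5 CPM (3.00 to 42.5), while mural-like cells had Col6a3 at 52.4 and 112 CPM. Microglia-like cells had Col6a3 at 4.38 to 109 CPM (median 37.4 over 7 libraries), a range that spans both microglia-like clusters. Col8a1 and Col8a2, the chains of the net-forming type VIII collagen, were at 414 and 401 CPM and at 94.0 and 117 CPM in choroid plexus-like cells of IgG replicate 2 and CD40. Free RNA was estimated at 56.9% of the choroid plexus-like UMIs in IgG replicate 2 and 7.43% in CD40. Mural-like cells held 193 Col8a1 UMIs and 0 of Col8a2. The transmembrane Col17a1, a hemidesmosome collagen of epithelia, was at 79.6, 43.9 and 30.4 CPM in plasmacytoid dendritic-like cells of UT, BP replicate 1 and BPI, with free RNA at most 0.0184 CPM. The same cells had Col6a6 at 12.7, 52.8 and 10.1 CPM. The 10 members whose median over libraries was under 20 CPM in every named class were Col2a1, Col6a4, Col6a6, Col7a1, Col9a1, Col9a2, Col10a1, Col19a1, Col20a1 and Col24a1. Single libraries could lie above that mark, as for Col6a6.

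Endothelial-like and tumour-like cells could be tested against each other in 5 libraries, since IgG replicate 1 and BP replicate 2 had under 20 endothelial-like cells and were left out. With each library as a block, 38 of 44 members passed the filter on low counts and 23 were called by edgeR's quasi-likelihood test at an adjusted p under 0.05, 15 higher and 8 lower in endothelial-like cells. Over all genes 51.8% were called, 20.2% higher and 31.6% lower, and the median log2 difference was -0.33 over all genes and -0.07 over the 38 members. Col4a2 had a log2 difference of 6.41 ± 0.50 (SE, adjusted p = 2.3e-06 by edgeR) and Col4a1 of 5.34 ± 0.54 (SE, adjusted p = 1.4e-05 by edgeR), in 5 of 5 libraries each. Col15a1 was higher by 8.98, Col18a1 by 3.14 and Col4a3 by 3.88. Col18a1 went the other way in BPI, at 13.6 CPM in endothelial-like and 72.2 CPM in tumour-like cells, so its rise was in 4 of 5 libraries. Col4a5 was lower by 4.30, with 0 endothelial-like UMIs in UT, IgG replicate 2 and BPI and 2.95 and 2.60 CPM in BP replicate 1 and CD40, where free RNA would give 2.59 and 2.32 CPM. Col4a4 was lower by 2.57, so the 6 type IV genes did not move in 1 direction. Col9a3 fell by 3.93, and Col4a6, Col9a2, Col28a1, Col16a1 and Col23a1 were also lower.

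Fibrillar and beaded-filament members were called as well. Col3a1 was higher by 7.64 and Col1a2 by 7.06 on the log2 scale. Endothelial-like Col3a1 was at 0 in UT, 13.4 in IgG replicate 2, 45.7 in BP replicate 1, 0 in BPI and 13.6 CPM in CD40. In UT the free RNA estimate was 9.26 CPM of Col3a1 and 18.1 CPM of Col1a2, above the measured 0 and 1.59 CPM. It thus overstates free RNA for these genes there. Both genes were called with free RNA subtracted. The summed mural markers of the endothelial-like cells were at 170, 1103, 690, 20.3 and 456 CPM in the library order given for Col3a1. Mural-like cells had 18140 CPM in IgG replicate 2 and 17040 CPM in CD40. All 10 mural markers were detected in the endothelial-like cells, and their part in the result was not tested. Col6a6, higher by 8.71, was lowest in IgG replicate 2 (5.09 CPM) and highest in BP replicate 1 (200 CPM), so its libraries differed widely. Col13a1, higher by 3.72, was at 47.4 CPM in BPI (7 UMIs) and 14.0 CPM in CD40, but at 0 in UT and BP replicate 1. Col8a1, Col27a1, Col5a2, Col14a1, Col5a3 and Col6a3 completed the 15. Under DESeq2, where the median of all genes was 0.57 in place of -0.33, 14 members were called higher and 4 lower, against 19.6% and 20.6% of all genes (40.2% in all). Without the CD40 library 15 of 36 members were called, 11 higher and 4 lower, against 40.2% of all genes. Of the 23 members, 14 were called in each of the 11 settings run. The share of all genes called in every setting was not counted, so nothing particular to collagens follows from this.

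**Figure D4:**
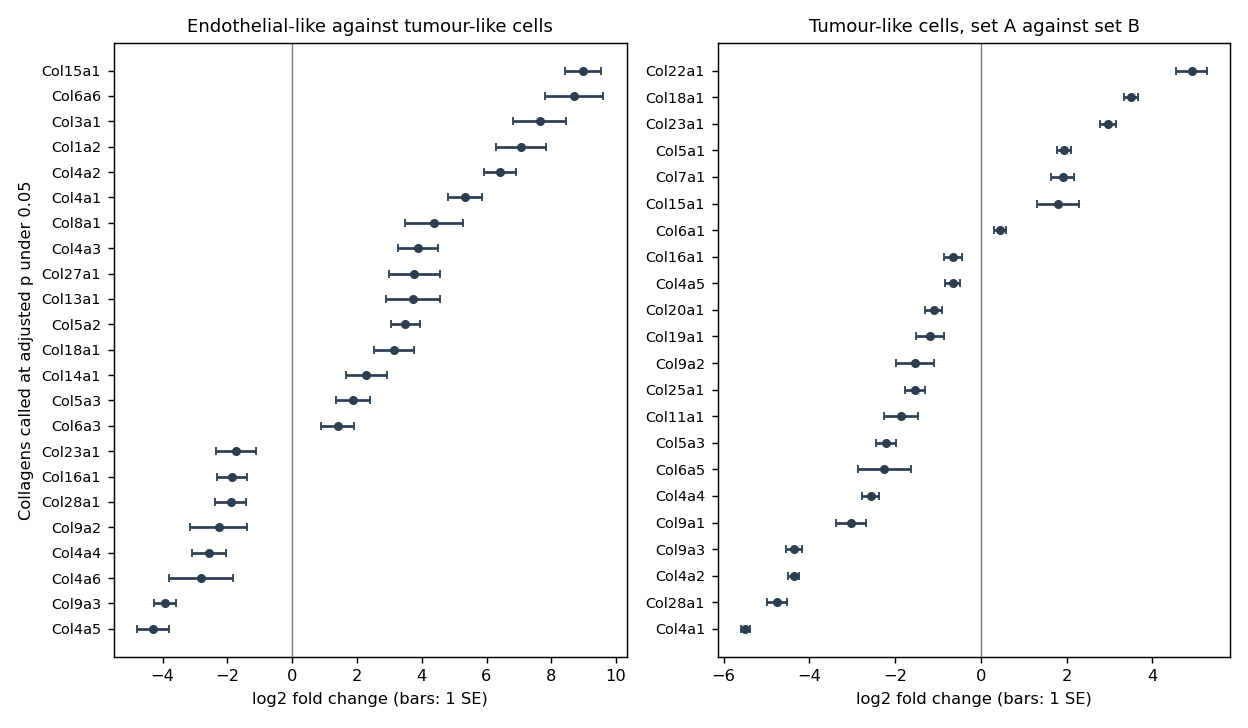
Log2 fold changes (x axis, points) with 1 SE (bars) of the members called at an adjusted p under 0.05 by edgeR, for endothelial-like against tumour-like cells (23 members, 5 libraries) and for tumour-like cells of set A against set B (22 members, 3 and 2 libraries). Col4a1 and Col4a2 lie far to the right (5.34 and 6.41) for endothelial-like against tumour-like cells and far to the left (-5.49 and -4.37) for set A against set B.

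Mural-like cells reached 20 cells in 2 libraries, so their contrasts are described without a test, as 4-fold or larger differences in both libraries among genes at 20 CPM or more in 1 of the 2 classes. Against endothelial-like cells, 9 of 14 members were higher in mural-like cells (6.63% of all genes so filtered) and 0 were lower (3.55%). These were Col1a2, Col3a1, Col5a1, Col5a2, Col5a3, Col6a3, Col14a1, Col8a1 and Col4a5. Col3a1 was 16.2-fold and 30.4-fold and Col5a3 9.92-fold and 20.1-fold higher in IgG replicate 2 and CD40. Col4a1 and Col4a2 differed little, at 0.878-fold and 1.03-fold and at 0.734-fold and 0.907-fold. Against tumour-like cells, 13 of 15 members were higher (9.8% of genes) and Col9a3 was lower (2.88%). Since a member could enter only by being high in 1 class, the counts of members are no support of their own.

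In the CD40 library alone, fibroblast-like cells were set against mural-like cells by the same rule. Of 29 members, 18 were 4-fold or more higher (10% of genes) and 3 were lower, namely Col6a3, Col4a1 and Col5a3 (4.2%). Col1a1 was 19.7-fold, Col6a2 16.5-fold and Col1a2 5.04-fold higher, and Col12a1, with 111 UMIs against 0, was at least 89.6-fold higher when 3 UMIs are taken as the floor for the mural-like library. Col4a1 was 4.35-fold and Col5a3 7.27-fold higher in mural-like cells. Against tumour-like cells, 25 of 26 members were higher (12.8% of genes) and 0 were lower (2.77%). Of these 26, only Col4a1, Col4a2, Col4a5 and Col9a3 reached 20 CPM in tumour-like cells, at 88.1, 21.3, 31.4 and 88.7 CPM. The others entered by their fibroblast-like level and so could not come out lower. As in the mural-like contrasts, the counts of members are therefore no support of their own, against either class. Free RNA was estimated at 27.7% of the fibroblast-like UMIs, which would give 27.2 CPM of Col4a1 and 0.499 CPM of Col1a1.

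Within tumour-like cells collagens differed between library sets, as did many other genes, with 41.8% of all genes called between set A and set B. Col4a1 was at 36.7 CPM in UT, 76.2 in IgG replicate 2, 73.3 in BP replicate 1 and 88.1 in CD40, but at 1.58 in IgG replicate 1, 1.47 in BP replicate 2 and 1.62 CPM in BPI. Col9a3 was at 178, 83.1, 55.2 and 88.7 CPM in the first 4 and at 4.82, 2.93 and 2.96 CPM in the last 3. Col18a1 went the other way, at 4.78, 9.37, 8.97 and 9.16 CPM in the first 4 and at 112, 85.6 and 72.2 CPM in the last 3. The set A values lay apart from all others for these 3 genes and also for Col4a2, Col4a4, Col28a1, Col22a1 and Col23a1. The same held for some lower members, among them Col5a1 (at least 5.28 CPM in set A against at most 4.56) and Col20a1 (at most 1.51 against at least 2.89). How many of all genes lay apart in this way was not counted. Col4a5, the other main type IV chain of these cells, was at 13.1 to 22.5 CPM in set A against 13.2 to 37.7 CPM in the others, so its groups overlapped. The summed fibroblast markers of the tumour-like cells moved with the sets too, at 275 CPM in IgG replicate 1, 190 in BP replicate 2 and 175 in BPI against 63.4 to 103 CPM in the others. All 11 were detected, Dcn and Lum at 0.222 and 0.137 CPM over all tumour-like cells and Pdgfrl and Mgp at 57.5 and 55.7 CPM, and their part in the result was not tested.

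**Figure D5:**
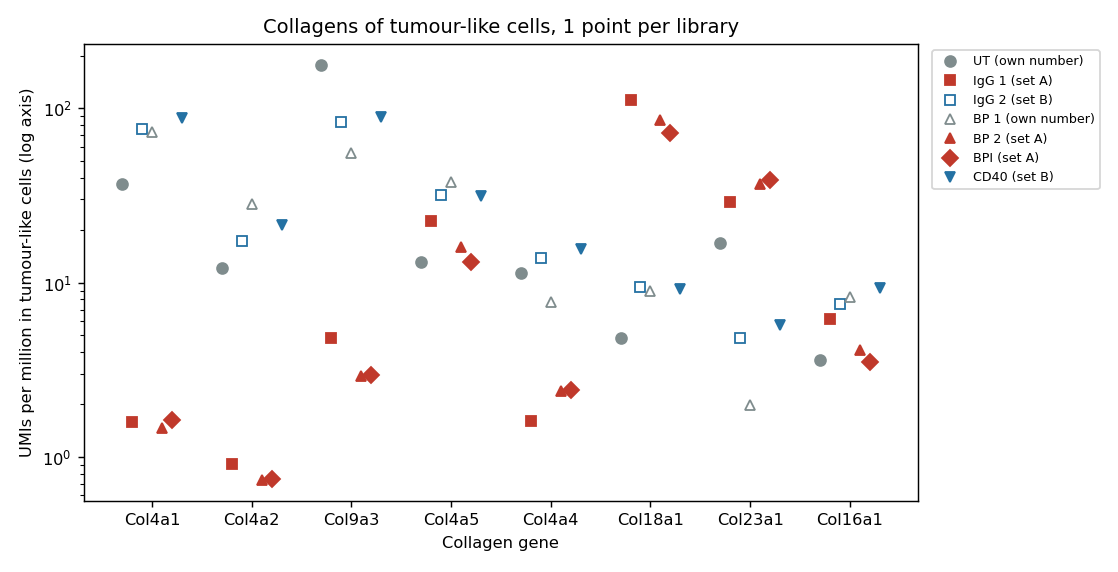
CPM of 8 collagens in tumour-like cells on a log axis, 1 point per library, with set A in red, set B in blue and the 2 libraries outside both in grey. Set A lies below the other 4 libraries for Col4a1, Col4a2, Col9a3 and Col4a4, above them for Col18a1 and Col23a1, and overlaps them for Col4a5 and Col16a1.

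Of 43 members tested, 22 were called between set A and set B, 7 higher and 15 lower in set A. Over all genes 41.8% were called, 20.3% higher and 21.5% lower, beside 51.2% of the members tested. Col4a1 was 1.56 ± 0.0765 CPM (SD, n = 3) in set A and 82.2 ± 8.39 CPM (SD, n = 2) in set B, a log2 difference of -5.49 ± 0.10 (SE, edgeR adjusted p = 4.7e-06). Col4a2 changed by -4.37, Col9a3 by -4.35, Col28a1 by -4.76 and Col4a4 by -2.56. Col18a1 was 89.9 ± 20.1 CPM (SD, n = 3) in set A and 9.27 ± 0.149 CPM (SD, n = 2) in set B, higher by 3.50 ± 0.17 (SE, edgeR adjusted p = 2.6e-05). Col22a1 was higher by 4.91 and Col23a1, a transmembrane collagen, by 2.96. Col5a1, Col7a1, Col15a1 and Col6a1 were the other 4 that rose, and Col15a1 stayed under 0.15 CPM. The other 10 that fell were Col9a1, Col6a5, Col5a3, Col11a1, Col25a1, Col9a2, Col19a1, Col20a1, Col4a5 and Col16a1. The 2 IgG libraries, 1 in each set, differed as widely as the sets (Col4a1 at 1.58 and 76.2 CPM, Col18a1 at 112 and 9.37 CPM). BPI is in set A alone and CD40 in set B alone, so these treatments cannot be told apart from their set in a comparison across sets. Against all 4 other libraries, 11 of 34 members tested were called (32.4%, against 13.9% of all genes). Of the 22 members, 11 were called in each of the 13 settings run, and the share of all genes that did so was not counted.

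A small share of set A cells lay, when pooled, between the sets in these genes. Of the tumour-like cells of set A, 492 (3.85%) lay in clusters made mostly of cells of the other libraries, and had Col4a1 at 9.75, Col9a3 at 48.3 and Col18a1 at 20.3 CPM. In the clusters led by set A the values were 1.32, 2.43 and 94.7 CPM. For IgG replicate 1 alone, Col4a1 in the 135 cells outside those clusters was at 31.1 CPM, whereas in BP replicate 2 it was at 4.04 and in BPI at 0.617 CPM (1 UMI). IgG replicate 1 gave 38 of the 47 Col4a1 UMIs of these cells, and their Wfdc2 was at 28.8 CPM. Clusters were made from the same cells without the collagens, and these values are a description.

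With all libraries of the groups compared and no block, edgeR called no collagen and no other gene for any treatment in tumour-like cells (0 of 43 members in each of 5 comparisons, 0% of all genes). Without IgG replicate 1 it called 3 genes for BP, 7 for BPI and 3 for UT, none of them a collagen. For BP against IgG, 1 member (Col9a2, chosen after its value was seen) had an unadjusted p under 0.05, against 2.07% of all genes. For BPI, for CD40 and for BPI against BP the count was 0, against 0.993%, 0.0893% and 0.159% of genes. UT against IgG had 3 (Col9a2, Col10a1 and Col19a1), against 12.6% of genes. DESeq2 called 0 members in all 5 comparisons, and 0.317%, 0.0189%, 0, 0 and 4.9% of all genes for BP, BPI, CD40, BPI against BP, and UT. The comparisons with IgG share the 2 IgG libraries. BPI, CD40 and UT are 1 library each, so their comparisons take the spread from the IgG and BP replicates. With that spread, a lack of calls cannot show that a treatment left the collagens unchanged. IgG and BP each hold 1 library of set A, and for Col4a1 and Col18a1 the replicates of a group differed more than the groups. This did not hold for every member. Col19a1 averaged 0.853 ± 0.287 CPM in IgG and 0.253 ± 0.0986 CPM in BP (SD, n = 2 each). Col4a1 averaged 38.9 ± 52.8 CPM in IgG and 37.4 ± 50.8 CPM in BP (SD, n = 2 each), with a log2 difference of -0.11 ± 2.04 (SE, edgeR adjusted p = 0.99986). Col18a1 averaged 60.6 ± 72.4 CPM in IgG and 47.3 ± 54.2 CPM in BP (SD, n = 2 each), with a log2 difference of -0.33 ± 1.49 (SE).

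Single libraries of the same set can be put side by side without a test. In set A, Col4a1 in BP replicate 2 differed from IgG replicate 1 by -0.07 on the log2 scale, and in BPI by 0.16. Col18a1 differed by -0.35 and -0.50, Col9a3 by -0.69 and -0.57 and Col4a5 by -0.46 and -0.65. In set B, CD40 differed from IgG replicate 2 by 0.14 for Col4a1, -0.10 for Col18a1, 0.03 for Col9a3 and -0.08 for Col4a5. For Col4a1 and Col18a1, these differences are small beside the set A against set B values of -5.49 and 3.50. Other members differed more. Over all 44, differences ran from -1.46 (Col9a2) to 1.10 (Col6a3) for BP replicate 2 and from -2.24 (Col4a3) to 1.17 (Col12a1) for BPI. For CD40 they ran from -1.11 (Col6a4) to 1.82 (Col24a1). Some of these extremes rest on few UMIs and are not read as differences between treatments. Col6a4 had 1 UMI in all cells of CD40 and 6 in those of IgG replicate 2. Tumour-like Col4a3 and Col12a1 were at most 0.198 and 0.0851 CPM in set A.

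Genes that make, bind and cleave collagen were followed with lists chosen for this purpose. In tumour-like cells of set A against set B, where 20.3% of all genes were higher and 21.5% lower, of 29 genes for collagen synthesis and crosslinking tested, 10 were higher and 7 lower, with Fkbp10 and Serpinh1, 2 endoplasmic reticulum chaperones of procollagen, higher by 0.94 and 0.80 and Crtap, part of the prolyl 3-hydroxylase complex, changed by -0.32. Of 14 basement membrane partners 2 were higher and 7 lower, with Sparc, a collagen-binding matrix protein, at -1.07 and the laminin chain Lamc1 at -0.62. Of 9 collagen receptors 0 were higher and 3 lower, and of 9 proteases and inhibitors 1 was higher and 2 lower. No treatment comparison called a gene of the 4 lists with edgeR.

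In endothelial-like against tumour-like cells, where 20.2% of all genes were higher and 31.6% lower, 14 of 15 basement membrane partners were higher and 1 was lower, with a median log2 difference of 3.58 against -0.33 over all genes. Nid1, which links laminin to type IV collagen, stood at 134, 317, 228, 115 and 302 CPM in endothelial-like cells of UT, IgG replicate 2, BP replicate 1, BPI and CD40, and at most 0.203 CPM in tumour-like cells. It was higher by 10.7 on the log2 scale, and Sparc was higher by 5.28. The laminin chain Lama5 was lower (-0.76). Of 29 synthesis genes 6 were higher, among them the lysyl hydroxylase Plod1 (1.74) and Serpinh1 (0.75), and 7 lower, among them Plod2 (-1.79) and the procollagen proteinase enhancer Pcolce2 (-5.25). Of 9 receptors 4 were higher and 3 lower, with the integrin chains Itga1 at 4.27 and Itgb1 at 1.22, the endocytic receptor Mrc2 at -3.46 and the kinase receptor Ddr2 at -1.63. Of 6 proteases and inhibitors 2 were higher, among them the inhibitor Timp3 (8.35), and Timp1 was lower (-0.57).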

How the data were processed

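Single-cell 3′ RNA libraries of 7 pooled tumour samples were analysed. The deposited values are raw UMI counts per gene and barcode. Per the file headers they come from Cell Ranger 4, whereas the submitters' processing notes name Cell Ranger 7.0.1 and mm10. A barcode was kept from 1000 UMIs and 500 genes upward if mitochondrial UMIs were 15% or less. The cells with the highest Scrublet doublet scores were removed at a preset rate of 0.8% per 1000 cells (4.50% to 8.43% of cells). Cells were clustered with scanpy 1.11.5 at resolution 1 on 2000 variable genes without collagens, 30 components and 15 neighbours. A cluster took a class name from at least 3 raised markers, unless its top 10 genes or its depth went against it. This naming rule was set after the data were seen. The members and lists were chosen with earlier results of these data known. Members at 20 CPM or more in a class or called in a comparison are described, and of each handling list up to 2 called genes that rose most and 2 that fell most, at an average log2 CPM of at least 5.

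Counts were summed per library and class of at least 20 cells and tested with edgeR 4.0.16 (quasi-likelihood, Benjamini-Hochberg adjustment over all genes tested, adjusted p under 0.05) in R 4.3.3. DESeq2 1.42.0 was an alternative, as were no filter on low counts, subtracting free RNA, a minimum of 2000 UMIs per cell, clustering at resolution 2, leaving out each library and a replicate block. Free RNA came from droplets of 10 to 100 UMIs and at least 5 markers. The edgeR fits were also run on simulated counts with known changes but no difference between library sets. Such counts cannot show whether the treatment fits could find a change in these data. Each SE of an edgeR log2 difference was worked back from its test, as the absolute difference divided by the square root of the F statistic. Intervals and floors (3 UMIs per library) cover counting error only.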

Additional observations from a re-analysis of the deposited data

How the results depend on the processing

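Between set A and set B, 15 to 21 collagens were called when 1 library of set A was left out. Over all genes this was 5490 of 20293 to 8994 of 20038. With DESeq2 21 were called (38.5%), with free RNA subtracted 18 (32.9%), and against all 4 other libraries 11, where 13.9% of genes were called. Leaving out a library of set B leaves that set with 1 library, and the spread then comes from set A alone. The 13 settings counted above include these fits. Between endothelial-like and tumour-like cells, 15 to 22 were called when 1 library was left out (40.2% to 49.2% of all genes), the lowest without CD40, and 18 with DESeq2 (40.2%). No collagen that was called changed direction in any setting. The difference in tumour-like share between BP and IgG ranged from -18.7 to 16.0 points when 1 library was left out and was 8.82 points at resolution 2. Col4a1 in BP against IgG ranged from -4.55 (without BP replicate 1) to 4.34 (without IgG replicate 2), and was 0.86 without BP replicate 2 and 0.0096 with the Gfap-led cluster counted as tumour-like, an alternative chosen after seeing the data. Col18a1 ranged from -2.94 (without BP replicate 2) to 2.50 (without IgG replicate 1), and was 0.55 without BP replicate 1 and 0.20 with UT pooled with IgG. The cause of these changes was not tested. With the replicate number as a block, 0 collagens were called with edgeR, and 0 had an unadjusted p under 0.05. Deviations of same-numbered IgG and BP libraries correlated at -0.701 across genes, which are not independent. A crossed pairing, chosen after seeing the data, called 0 collagens, with 6 of 38 at an unadjusted p under 0.05, against 1493 of 18616 genes, and it called 6 genes in all. Free RNA could not be estimated in the tumour-like cells of IgG replicate 1, and nothing was subtracted there. Mural-like and fibroblast-like contrasts had too few libraries for a test. Depth limits values from classes with few cells, such as the astrocyte-like cells of CD40 and the endothelial-like cells of BPI.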
